A study of Mus musculus with 48 samples.

Results

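The 9 genes described here encode components, receptors and a regulator of the complement system, and they were chosen by name from the 46983 genes in the count tables. They are the 3 chains of C1q (*C1qa*, *C1qb* and *C1qc*), the protease subunit *C1ra*, the inhibitor *Serping1*, the cleaved components *C4b* and *C3*, and the anaphylatoxin receptors *C3ar1* and *C5ar1*. All 9 had more than 10 reads in total and were among the 19970 genes tested. RNA from mouse brain was measured by 3′-end sequencing (QuantSeq, which reads each polyadenylated transcript near its end) in 48 libraries of 11 groups. All mice were 3-month-old male C57Black/6 mice. MCAO is the permanent occlusion of the middle cerebral artery by coagulation and transection under isoflurane, which leaves a small infarct in the parietal cortex. MCAO libraries were made at 3 h, 12 h, day 3 and day 7 (5 each) and at 24 h (4). Sham libraries (4 at each of the same times) came from mice that had the same surgery without coagulation of the artery, and control libraries (4) came from intact cortex. By the labels the tissue was the injured cortical region with affected and unaffected parts together, while the study's text also speaks of nearly the whole injured hemisphere, so that how much spared tissue a value averages over is not settled. The labels give a letter for each library, and the study states at least 4 mice per condition for its bulk sequencing. The 3 hemispheres per timepoint of its design text match the pooling that its methods give for single-nucleus sequencing. Levels are given in CPM, which are read counts scaled to the TMM-adjusted size of each library.

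Complement is a cascade of plasma and tissue proteins that tags cells, debris and synapses for removal. C1q, built of 3 chains, recognises a surface and activates the proteases C1r and C1s, which cleave C4 and C2 so that C3 can be cleaved in turn. The C1 inhibitor Serping1 inactivates C1r and C1s. The small fragments C3a and C5a act on C3ar1 and C5ar1, G-protein-coupled receptors of myeloid cells that steer migration and activation. In the brain, microglia are the main source of C1q, and astrocytes are a known source of C4 and C3. Microglia and blood-derived myeloid cells carry the anaphylatoxin receptors.

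By edgeR, *Serping1* was the only member called against sham at 12 h and *C4b* was the only member called against control at 24 h, while the C1q chains, *C4b* and *C3ar1* were called on day 3 and day 7 against both references. On day 3 the C1q chains were 9.11- to 10.1-fold, *C4b* 12.0-fold and *C3ar1* 24.4-fold above sham. Pooled over libraries, *C5ar1* on that day was 32.4-fold above a limit of 3 reads over the sham group, where all libraries had 0 reads. This value leaves out the counting error of MCAO and the spread between mice. *C3* and *C1ra* were close to the detection limit, with 134 and 239 reads summed over all libraries, and edgeR did not call them in any comparison, while DESeq2 called *C3* against sham at 12 h and on day 7 (adjusted p = 0.00749 and 0.00798). In a bulk sample, more cells of a type and more RNA per cell cannot be told apart.

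**Figure D1:**
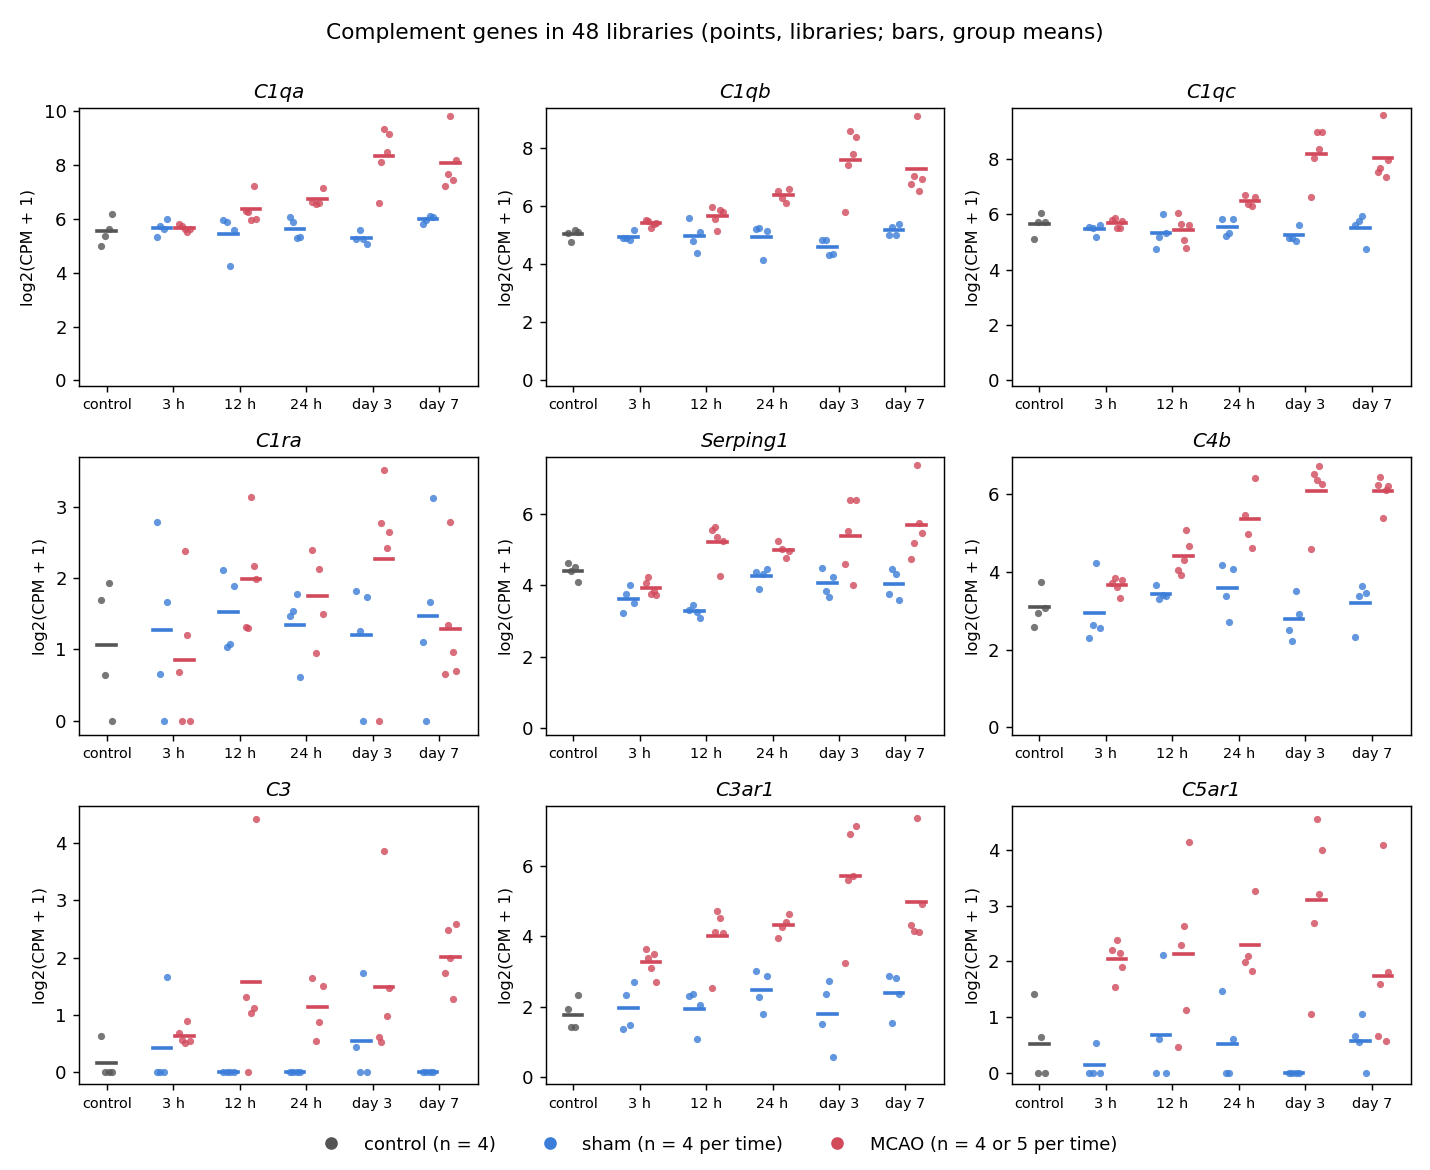
Levels of the 9 complement genes in log2(CPM + 1) by library (points) and group mean (bars), for control, sham and MCAO. The MCAO libraries of day 3 and day 7 lie above the shams for the C1q chains, *C4b* and *C3ar1*, and *C3* was at 0 in every sham library of 12 h, 24 h and day 7.

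Depth was between 1522668 and 2826735 reads on genes per library (median 1935856). No 2 libraries held identical counts. Some libraries stood apart in most members. On day 7 replicate C of MCAO held the highest level of 7 of the 9 members, on day 3 replicate A of MCAO held the lowest level of 7, and at 12 h replicate E of MCAO held 34 of the 42 reads of *C3* in its group. Day 7 replicate C also had a summed level of 8 fibroblast markers of 5505 CPM, against 184.6 to 543.2 CPM in the other 4 libraries of the group, and a summed level of 8 microglia markers of 2097 CPM against 638.6 to 841.1 CPM. The part of these marker levels in the results was not tested.

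The number of members called is given beside the share of all 19970 genes. The members were chosen with earlier results of these data known, so this is a description and not a test. Calls come from edgeR's quasi-likelihood test in a single fit of all groups, and needed both a p under 0.01 after Benjamini-Hochberg adjustment and a log2 fold change beyond 0.58 in size. Against sham, 0 of the 9 members were called at 3 h (0.0901% of all genes tested were called higher), 1 at 12 h (0.346%), 0 at 24 h (0.0801%), 7 on day 3 (3.76%) and 6 on day 7 (2.07%). All of these calls were higher in MCAO. The median log2 fold change of the 9 members against sham was 0.30 at 3 h, 1.08 at 12 h, 1.43 at 24 h, 3.32 on day 3 and 2.75 on day 7, where the median over all genes tested lay between 0.00 and 0.06. The members with an unadjusted p under 0.05 in the same test numbered 2 at 3 h and 7 at 24 h, and DESeq2 in place of edgeR called 0 at 3 h and 1 at 24 h.

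Against control, 0 members were called at 3 h (0.115% of all genes called higher) and 0 at 12 h (0.386%), and 1 at 24 h (0.12%), 6 on day 3 (2.81%) and 6 on day 7 (1.09%), again all higher in MCAO. Of the members, 2 had an unadjusted p under 0.05 at 3 h and 6 at 12 h, and DESeq2 in place of edgeR called 0 at 3 h and 1 at 12 h. Sham and control differed in 0 members by edgeR and by DESeq2 at each of the 5 times, where the share of all genes called in either direction was 0% at 3 h, 0.0351% at 12 h, 0.01% at 24 h, 0% on day 3 and 0% on day 7. A single member, *Serping1* at 12 h, had an unadjusted p under 0.05 in these 5 comparisons. The MCAO and sham comparisons with control share the same 4 control libraries.

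The difference between MCAO and sham was also compared between successive times in the same fit. For 0 members was the change called from 3 h to 12 h (0.01% of all genes called), from 12 h to 24 h (0.01%), from 24 h to day 3 (0.01%) or from day 3 to day 7 (0%). By DESeq2 the count was 0 in the same 4 comparisons. The unadjusted p was under 0.05 for 2, 1, 6 and 1 of the 9 members in the order of these comparisons. From 24 h to day 3 the difference was larger by 2.26 on the log2 scale for *C1qa* (SE 0.56, adjusted p = 0.153 from edgeR with Benjamini-Hochberg adjustment) and by 2.25 for *C1qc* (SE 0.50, adjusted p = 0.113). The change for *C1qc* was called without a filter on low counts (adjusted p = 0.00264) and without replicate A of MCAO on day 3 (2.48, adjusted p = 0.00476). That a member was called at one time and not at the next is therefore not shown as a difference between the times.

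**Figure D2:**
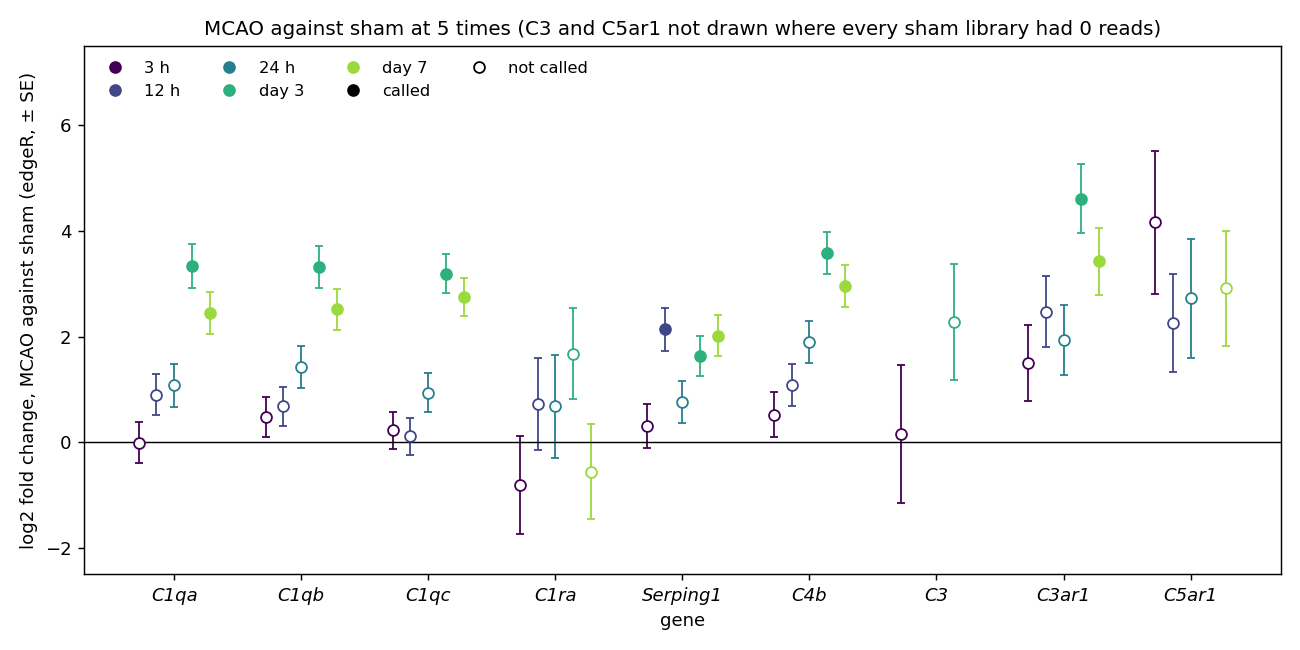
Log2 fold change of MCAO against sham for each member at 5 times (edgeR estimate ± SE), with filled points for called values. *Serping1* is the only member called at 12 h, and *C3* and *C5ar1* are left out at times where every sham library had 0 reads.

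The 3 C1q genes lie side by side on the minus strand of chromosome 4 of GRCm38, *C1qb* (ENSMUSG00000036905.8) from 136880129 to 136886187, *C1qc* (ENSMUSG00000036896.5) from 136889804 to 136893065 and *C1qa* (ENSMUSG00000036887.5) from 136895917 to 136898803. *C3ar1* (ENSMUSG00000040552.8) lies on chromosome 6 from 122847138 to 122856161, also on the minus strand. Stretches before the start of *C1qb*, *C1qc* and *C3ar1* are shown because these genes of myeloid cells moved together on day 3. They come from RefSeq (GRCm38.p6) and hold no exon base of the Gencode annotation. Capitals mark a match to 1 of 6 motifs searched on both strands.
C1qb, chr4:136886201-136886300, minus strand: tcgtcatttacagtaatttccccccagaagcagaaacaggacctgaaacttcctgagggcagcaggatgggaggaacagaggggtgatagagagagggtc
C1qc, chr4:136893066-136893164, minus strand: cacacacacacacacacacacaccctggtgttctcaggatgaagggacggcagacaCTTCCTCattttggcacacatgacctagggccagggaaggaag
C3ar1, chr6:122856162-122856261, minus strand: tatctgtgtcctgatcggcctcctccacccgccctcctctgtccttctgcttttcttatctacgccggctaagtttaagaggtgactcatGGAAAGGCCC
The capitals in *C1qc* are the reverse strand of GAGGAAG, a core that the myeloid factor PU.1 binds, and those in *C3ar1* match a pattern of NF-kB on the reverse strand. Over the 250 bases before the start, 10.4% of 27025 RefSeq promoters held the former and 1.4% held the latter. The other patterns were those of C/EBP (TTGCNNAA, 9.55% of promoters), STAT (TTCNNNGAA, 7.18%) and IRF (3.04%) and the TATA box (TATAAA, 13%), and no matches in these promoters overlapped. Promoters of 6 members were in the table. In the same window *C1qb*, *C1ra* and *C5ar1* held none of the 6 patterns, *C3* held 1 C/EBP pattern and *C3ar1* also held a TATA box. Of the 250 bases, 216 in *C1ra*, 151 in *C1qc*, 28 in *C5ar1* and 4 in *C3ar1* were exon bases of the gene itself in Gencode. For *C1ra* the window is therefore mostly transcribed sequence. A match of letters is a description of the window only.

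*C1qa* had 30.7, 40.5, 48.5 and 71.9 CPM in the 4 control libraries. It had 37.0, 46.6, 37.4 and 32.8 CPM in sham and 95.02, 274.3, 642.7, 358.9 and 571.6 CPM in MCAO on day 3. Every MCAO library lay above every sham library on that day, and the lowest MCAO library was replicate A. The log2 fold change was 3.34 (SE 0.42, adjusted p = 2.32e-07 from edgeR with Benjamini-Hochberg adjustment). On day 7 *C1qa* had 54.9, 62.1, 68.7 and 65.7 CPM in sham and 148.3, 201.5, 909.6, 173.2 and 288.7 CPM in MCAO, again without overlap. The log2 fold change on day 7 was 2.45 (SE 0.40, adjusted p = 6.97e-05 from edgeR). The rises on both days were also called against control (3.02 and 2.84 on the log2 scale).

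*C1qb* had 25.9 to 35.0 CPM in the control libraries. On day 3 it had 18.7 to 27.7 CPM in sham and 54.5, 170.4, 381.0, 222.7 and 337.1 CPM in MCAO, a log2 fold change of 3.32 (SE 0.40, adjusted p = 8.7e-08 from edgeR with Benjamini-Hochberg adjustment). On day 7 it had 30.9 to 41.1 CPM in sham and 108.5, 131.3, 556.9, 91.6 and 122.8 CPM in MCAO, a log2 fold change of 2.51 (SE 0.38, adjusted p = 2.81e-05). The groups did not overlap on either day. *C1qc* had 31.8 to 48.3 CPM in sham and 98.2, 262.5, 506.9, 325.7 and 504.1 CPM in MCAO on day 3, and 26.0 to 60.5 CPM in sham and 184.0, 205.1, 772.8, 163.6 and 249.3 CPM in MCAO on day 7. Its log2 fold changes were 3.19 (SE 0.37, adjusted p = 5.13e-08) and 2.75 (SE 0.36, adjusted p = 2.7e-06 from edgeR). On day 3 the 3 chains put the libraries in the same order, C, E, D, B and A from the highest. On day 7 replicate C was the highest for all 3, and the order of the other 4 libraries differed between the chains. All calls of the C1q chains on these days were kept without any 1 library of the groups compared. Without MCAO replicate C, however, the log2 fold changes over sham on day 7 were smaller, at 1.69 for *C1qa*, 1.68 for *C1qb* and 2.099 for *C1qc* (adjusted p = 0.00159, 0.000424 and 1.57e-05 from edgeR), and those over control were 2.08, 1.84 and 1.98.

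Before day 3 the C1q chains were not called. At 24 h the 4 MCAO libraries had 92.1 to 139.9 CPM of *C1qa* against 38.4 to 65.9 CPM in sham, 68.2 to 95.3 against 16.5 to 36.7 CPM of *C1qb*, and 78.0 to 102.8 against 36.0 to 55.8 CPM of *C1qc*. None of the 3 overlapped with sham, and the log2 fold changes were 1.08 for *C1qa* (adjusted p = 0.373 from edgeR), 1.43 for *C1qb* (adjusted p = 0.125) and 0.94 for *C1qc* (adjusted p = 0.391). *C1qb* was called at 24 h with only the groups compared in the fit (log2 fold change 1.42 against sham, adjusted p = 0.00477). At 12 h the chains gave unlike values. *C1qa* had 62.1 to 150.0 CPM in MCAO and 18.1 to 62.0 CPM in sham, while *C1qc* had 26.5 to 65.6 CPM in MCAO and 25.7 to 64.3 CPM in sham. At 3 h *C1qb* had 37.3 to 45.2 CPM in MCAO, above the 27.3 to 34.9 CPM of sham, while *C1qa* overlapped at 45.2 to 55.5 against 38.8 to 62.7 CPM.

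The group means of *C1qa* and *C1qc* were highest in MCAO on day 3, followed by MCAO on day 7 and at 24 h. The ranges of days 3 and 7 overlapped with each other, and that of day 7 lay above that of 24 h for both genes. *C1qb* had the same order, and its ranges on day 7 and at 24 h overlapped. The sham and control groups had overlapping ranges between neighbours in this order for all 3 chains. The ratios between the chains were compared between MCAO and sham on the mean log2 ratio (1 CPM added to each) with exact permutation tests, two-sided and adjusted over 15 tests. None passed a threshold of 0.05, and on day 3 the differences were within 0.09 on the log2 scale. The smallest adjusted p was 0.119, that of *C1qa* to *C1qb* at 3 h, where the log2 ratio was 0.26 ± 0.08 in MCAO (SD, n = 5) and 0.72 ± 0.21 in sham (SD, n = 4) in the same exact test.

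*C1ra* (ENSMUSG00000055172.10, chromosome 6 from 124512405 to 124523443, plus strand) encodes the protease that C1q activates. It had 0 to 21 reads per library. On day 3 the MCAO libraries had 0, 13, 21, 9 and 12 reads, and the sham libraries had 7, 3, 0 and 5. Pooled over libraries, MCAO was 3.24-fold above sham on day 3, with a 95% counting interval from 1.81 to 6.18 (exact binomial) that leaves out the spread between mice. The fitted log2 fold change of 1.67 was not called (SE 0.86, adjusted p = 0.25 from edgeR). On day 7 the pooled ratio was 0.646 (interval 0.324 to 1.26). A near-identical copy, *C1rb*, shares 19.1% of the windows of 50 bases in the last 500 bases of the *C1ra* transcript and had 4 reads in all, so that *C1ra* may be undercounted.

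*Serping1* (ENSMUSG00000023224.12, chromosome 2 from 84765387 to 84775444, minus strand) encodes the inhibitor of C1r and C1s. At 12 h it had 8.94, 9.91, 8.503 and 7.40 CPM in sham and 46.0, 48.5, 40.2, 18.2 and 36.9 CPM in MCAO. The groups did not overlap, and *Serping1* rose by 2.14 on the log2 scale (SE 0.41, adjusted p = 0.00217 from edgeR with Benjamini-Hochberg adjustment). Control libraries had 16.0 to 24.0 CPM, so that all 4 shams of 12 h lay under all 4 controls, with a log2 difference of -1.25 (SE 0.44, adjusted p = 0.874 from edgeR). Against control, MCAO at 12 h was higher by 0.89 (SE 0.38, adjusted p = 0.225). The reference therefore sets the size at 12 h, and the call against sham was lost without sham replicate A, C or D (adjusted p = 0.0103, 0.0174 and 0.0155).

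At 24 h *Serping1* had 26.3 to 37.0 CPM in MCAO and 13.9 to 21.0 CPM in sham, which was not called (log2 fold change 0.76, adjusted p = 0.579 from edgeR). On day 3 it had 21.4, 13.4, 11.7 and 17.8 CPM in sham and 23.5, 45.6, 82.9, 15.1 and 83.3 CPM in MCAO, and MCAO replicate D lay among the shams. It rose by 1.63 (SE 0.38, adjusted p = 0.00281 from edgeR), and the call was lost without MCAO replicate C or E or without sham replicate B, C or D (1.37 to 1.67, adjusted p = 0.01 to 0.0234). On day 7 it had 10.95 to 21.0 CPM in sham and 26.0, 35.6, 166.0, 52.8 and 43.2 CPM in MCAO with no overlap, a rise of 2.02 (SE 0.38, adjusted p = 0.000535 from edgeR). Without replicate C of MCAO the rise on day 7 was 1.31 and no longer called (adjusted p = 0.0133), and against control it went from 1.65 to 0.94 (adjusted p = 0.167). With only the groups compared in the fit, neither the call on day 3 nor that on day 7 against sham was made (adjusted p = 0.0333 and 0.0204). The call against control on day 7 was also lost without each of the 4 control libraries (1.54 to 1.73, adjusted p = 0.0182 to 0.0373).

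*C4b* (ENSMUSG00000073418.4, chromosome 17 from 34728380 to 34743882, minus strand) encodes C4, the substrate of C1s. It had 5.02, 6.75, 12.4 and 7.42 CPM in control and 43.3, 30.4, 23.7 and 84.3 CPM in MCAO at 24 h. These groups did not overlap, and *C4b* was the only member called at 24 h, with a rise of 2.499 (SE 0.42, adjusted p = 0.000281 from edgeR with Benjamini-Hochberg adjustment). Against the shams of 24 h, which had 5.49 to 17.2 CPM, the log2 fold change was 1.89 (SE 0.40, adjusted p = 0.0169), and it was called by DESeq2 (adjusted p = 0.00166) and without MCAO replicate C (2.11, adjusted p = 0.00518). On day 3 *C4b* had 3.69 to 10.3 CPM in sham and 23.0, 90.4, 82.4, 105.0 and 75.8 CPM in MCAO. On day 7 it had 4.01 to 11.5 CPM in sham and 74.4, 87.0, 41.1, 68.1 and 72.7 CPM in MCAO. The rises over sham were 3.58 (SE 0.41, adjusted p = 3.81e-08 from edgeR) and 2.96 (SE 0.39, adjusted p = 2.78e-06), with no overlap on either day. At 12 h the MCAO libraries had 14.1 to 32.9 CPM, all above the 8.86 to 11.7 CPM of sham, which was not called (1.08, adjusted p = 0.164).

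The day 7 library that was highest for the C1q chains was the lowest for *C4b*. Replicate C had 41.1 CPM of *C4b* where the other 4 libraries had 68.1 to 87.0 CPM, although its *C1qa* was at 909.6 CPM against 148.3 to 288.7 CPM. On day 3 the libraries with the most *C1qa*, replicates C and E, had 82.4 and 75.8 CPM of *C4b*, between the 23.0 CPM of replicate A and the 105.0 CPM of replicate D. The spread of *C4b* on day 7 was 2.12-fold between the highest and the lowest library, compared with 6.13-fold for *C1qa*, 6.39-fold for *Serping1* and 9.99-fold for *C3ar1*. Of the 5 MCAO libraries of day 7 the same replicate C had the lowest sum of 8 astrocyte markers, 3586 CPM against 5095 to 5401 CPM in the other 4 libraries and 4378 to 5433 CPM in sham. Of these 5 it also had the lowest sum of 8 oligodendrocyte markers, 1778 CPM against 2864 to 4928 CPM in the other 4 and 1603 to 2340 CPM in sham. Its sum of 8 neuron markers was the lowest as well, 4191 CPM against 6182 to 7118 CPM in the other 4 and 7136 to 8002 CPM in sham. Its sum of 8 microglia markers was instead the highest of the 5, 2097 CPM against 638.6 to 841.1 CPM in the other 4. The part of these cells in the level of *C4b* was not tested.

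**Figure D3:**
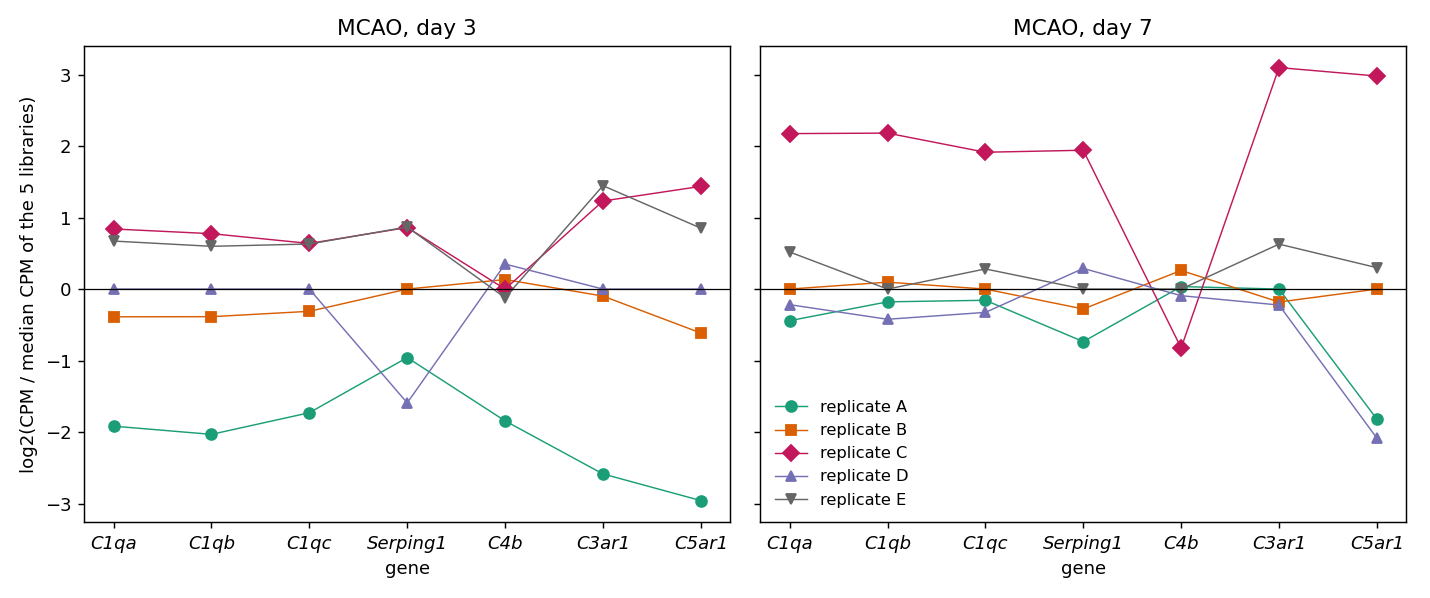
Level of 7 complement genes in each MCAO library of day 3 (left) and day 7 (right), as log2 of the CPM over the median CPM of the 5 libraries of that day. Replicate C of day 7 is the highest for 6 of the genes drawn and the lowest for *C4b* (41.1 CPM), and replicate A of day 3 is the lowest for 6 of them.

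The last 500 bases of the longest *C4b* transcript share 38.1% of windows of 50 bases with *C4a*, a near-identical neighbour, and no other member but *C1ra* shared any. Reads in the shared part would not be unique, so that *C4b* may be undercounted. *C4a* itself had 0 to 2.93 CPM per library and was not called at any time (log2 fold change 0.18 on day 3 and 0.55 on day 7 against sham, adjusted p = 0.951 and 0.784 from edgeR with Benjamini-Hochberg adjustment).

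*C3* (ENSMUSG00000024164.15, chromosome 17 from 57203970 to 57228136, minus strand) encodes the component on which all activation routes converge. It had 1 read in the 4 controls together, and 0 reads in all shams of 12 h, 24 h and day 7. On day 7 every MCAO library had reads, 4, 9, 5, 3 and 8 of them. Pooled, this was 8.45-fold above the limit that a count of 0 allows in sham, 3 reads over the group. The limit covers the counting error of sham only, not that of MCAO or the spread between mice. At 24 h the MCAO libraries had 5, 1, 2 and 3 reads, pooled 2.94-fold above the same limit for sham. At 12 h they had 4, 0, 2, 2 and 34 reads, of which replicate E held most. The pool was 12.5-fold above the same limit for sham. On day 3 they had 1, 1, 27, 2 and 4 reads and the shams had 1, 0, 5 and 0, and replicate C held most of them. edgeR with Benjamini-Hochberg adjustment did not call *C3* at 12 h (adjusted p = 0.0343) or on day 7 (adjusted p = 0.0244), while DESeq2 called both (adjusted p = 0.00749 and 0.00798).

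The libraries with many *C3* reads also had high granulocyte markers. The summed level of 7 granulocyte markers was 1710 CPM in replicate E of MCAO at 12 h (12.2 to 176.5 CPM in the other 4) and 620.7 CPM in replicate C of MCAO on day 3 (4.81 to 72.7 CPM in the other 4). In the shams of 12 h and day 3 the sum was 0 to 3.23 CPM. *Retnlg*, *Cxcr2* and *Ly6g* were at 0 in both groups, and *Mmp8* was at 0 in that of day 3. *Ly6g*, with 9 reads in all, was not tested and is not part of the sum. Of the 7 tested markers, 2 were called higher than sham at 12 h and 2 on day 3. Most reads of the sum were of *S100a8* and *S100a9*, 2906 and 2805 over all libraries, against 28 to 131 for each other tested marker. On day 7 the granulocyte sum was only 5.64 to 20.2 CPM in MCAO, and *C3* had 1.44 to 5.01 CPM there, above all shams. The same 2 libraries also had the highest sums of 8 peripheral myeloid markers in their groups. These were 139.4 CPM at 12 h (33.4 to 86.6 CPM in the other 4) and 524.4 CPM on day 3 (42.7 to 519.1 CPM in the other 4). The part of any of these cells in *C3* was not tested.

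**Figure D4:**
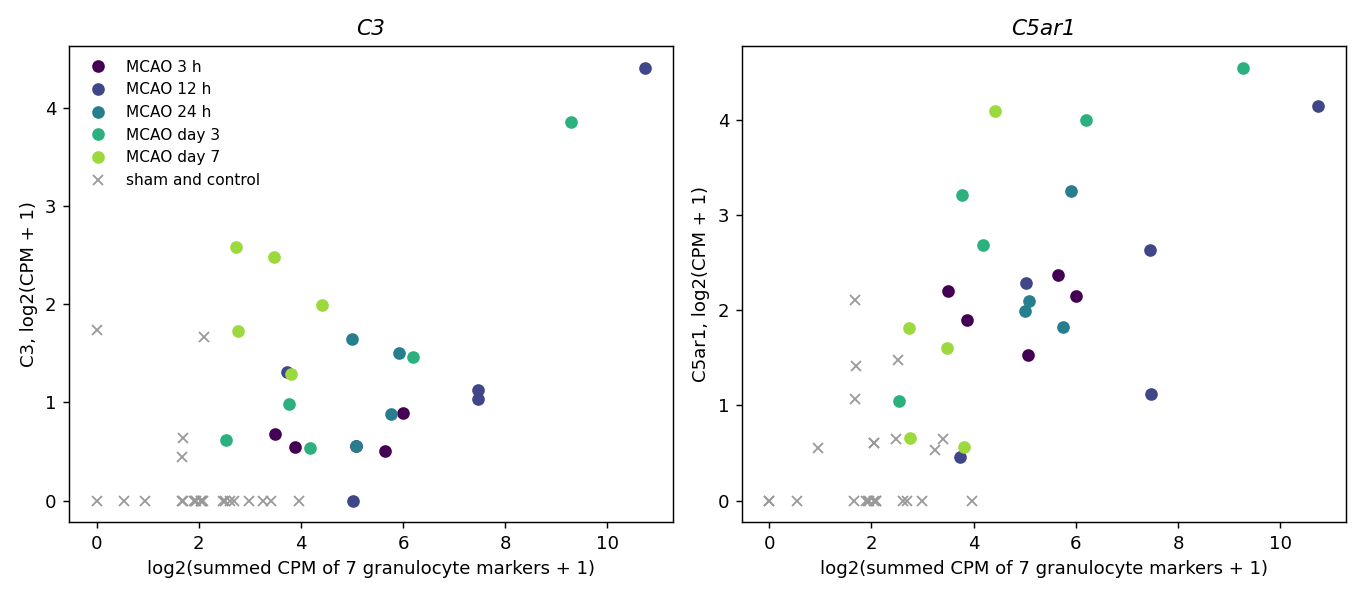
*C3* (left) and *C5ar1* (right) in log2(CPM + 1) against the summed level of 7 granulocyte markers, log2(CPM + 1), in 48 libraries, with MCAO coloured by time and sham and control as crosses. The 2 libraries with most *C3* (20.3 and 13.5 CPM) have the highest marker sums, while the day 7 libraries have *C3* at low sums.

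*C3ar1*, the receptor of C3a, was apart from sham from the first time on, as were *C1qb* and *C5ar1* at 3 h. At 3 h it had 1.58, 4.03, 1.79 and 5.45 CPM in sham and 11.5, 9.45, 7.55, 10.3 and 5.47 CPM in MCAO. All MCAO libraries lay above all shams, the closest by a small margin, and the log2 fold change of 1.499 was not called (SE 0.71, adjusted p = 0.567 from edgeR with Benjamini-Hochberg adjustment). At 12 h it had 1.11 to 4.17 CPM in sham and 4.82, 16.5, 25.6, 21.8 and 16.1 CPM in MCAO (2.47, adjusted p = 0.0485), and at 24 h 2.44 to 7.13 CPM in sham and 14.5 to 23.8 CPM in MCAO (1.93, adjusted p = 0.286). On day 3 it had 1.81, 4.16, 5.61 and 0.469 CPM in sham and 8.54, 47.9, 120.4, 51.3 and 139.7 CPM in MCAO. *C3ar1* rose by 4.61 on day 3 (SE 0.65, adjusted p = 2.99e-06 from edgeR). On day 7 it had 1.87 to 6.29 CPM in sham and 19.0, 16.8, 163.0, 16.3 and 29.4 CPM in MCAO, a rise of 3.42 (SE 0.63, adjusted p = 0.000329). Without replicate C of MCAO the value on day 7 was 2.16 and was not called (adjusted p = 0.0116), although the groups did not overlap, nor was it called with only the groups compared in the fit (adjusted p = 0.0144). Against control the rise on day 7 went from 4.23 to 2.97 without the same library and was still called (adjusted p = 0.00321).

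*C5ar1* (ENSMUSG00000049130.5, chromosome 7 from 16246743 to 16259540, minus strand), the receptor of C5a, had 0 to 45 reads per library. At 3 h the MCAO libraries had 6, 4, 10, 8 and 6 reads, and the shams had 0, 0, 1 and 0. Pooled, MCAO was 26.5-fold above sham at 3 h, with a counting interval from 4.45 to 1.08e+03 (exact binomial, 95%), and the fitted value was not called (adjusted p = 0.252 from edgeR). On day 3 *C5ar1* had 1.07, 5.42, 22.5, 8.30 and 14.98 CPM in MCAO and 0 reads in every sham library, and it was called (adjusted p = 0.000348 from edgeR with Benjamini-Hochberg adjustment). Against control, where 4 reads were counted in all, the pooled ratio on day 3 was 18.7 (interval 7.12 to 70). The fitted log2 fold change against control was 4.08 (SE 1.04, adjusted p = 0.00943), and the call was lost without MCAO replicate C, D or E or any of the 4 controls (3.60 to 5.40, adjusted p = 0.0115 to 0.0455). On day 7 it had 0.577, 2.04, 16.1, 0.480 and 2.51 CPM in MCAO and 0 to 1.09 CPM in sham, which overlapped and was not called (2.91, adjusted p = 0.0852).

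All MCAO libraries lay above all sham libraries for 3 members at 3 h (2.27% of all genes tested did so), for 4 at 12 h (2.03%), for 8 at 24 h (3.73%), for 6 on day 3 (4.33%) and for 7 on day 7 (5.38%). At 3 h these were *C1qb*, *C3ar1* and *C5ar1*. At 12 h they were *C1qa*, *Serping1*, *C4b* and *C3ar1*, and at 24 h all members but *C1ra*. *C3ar1* was the member for which this held at all 5 times.

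C1q is a product of microglia in the brain, so the members were also set against the summed level of 8 microglia markers (among them *Cx3cr1*, *P2ry12* and *Tmem119*) in the same library. That sum was 309.7 to 387.6 CPM in control. It was 246.4 to 338.7 CPM in sham and 532.2 to 1591 CPM in MCAO on day 3, and 357.0 to 474.9 CPM in sham and 638.6 to 2097 CPM in MCAO on day 7. Of the 8 markers, 5 were called higher than sham on day 3 and 3 on day 7, and none was at 0. On day 3 the log2 ratio of *C1qa* to the markers was -1.69 ± 0.48 in MCAO (SD, n = 5) and -2.99 ± 0.17 in sham (SD, n = 4), a difference of 1.30 that did not pass (exact permutation test, adjusted p = 0.051 over 45 tests).

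On day 7 the ratio to the markers was higher in MCAO by 0.90 for *C1qa*, 0.95 for *C1qb* and 1.34 for *C1qc* (two-sided exact permutation, adjusted p = 0.0446 each). The ratio of *C4b* was higher by 1.56 on day 3 in the same exact test (adjusted p = 0.0446) and by 1.71 on day 7, which did not pass (adjusted p = 0.0714). *C1qb* and *C5ar1* at 3 h (0.57 and 2.01) and *C1qa* and *C1qb* at 12 h (1.03 and 0.79) made up the 8 of 45 ratios that passed, all with every MCAO library above every sham library and the smallest p that 5 against 4 libraries allow (exact p = 0.00794). Groups of 4 against 4 at 24 h cannot go below an exact p = 0.0286. *Serping1* differed by -0.41 on day 3 (exact permutation, adjusted p = 0.566) and by 0.51 on day 7 (adjusted p = 0.252). All 8 shared the same adjusted p, and the number that passed was 0 without any 1 library of 3 h, 12 h, day 3 or day 7, except that without MCAO replicate C of day 7 it was 26. It was 27 without *Cx3cr1*, 15 without *Csf1r* and 27 with 0.1 CPM added in place of 1 CPM, so that which ratios passed depends on these choices.

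**Figure D5:**
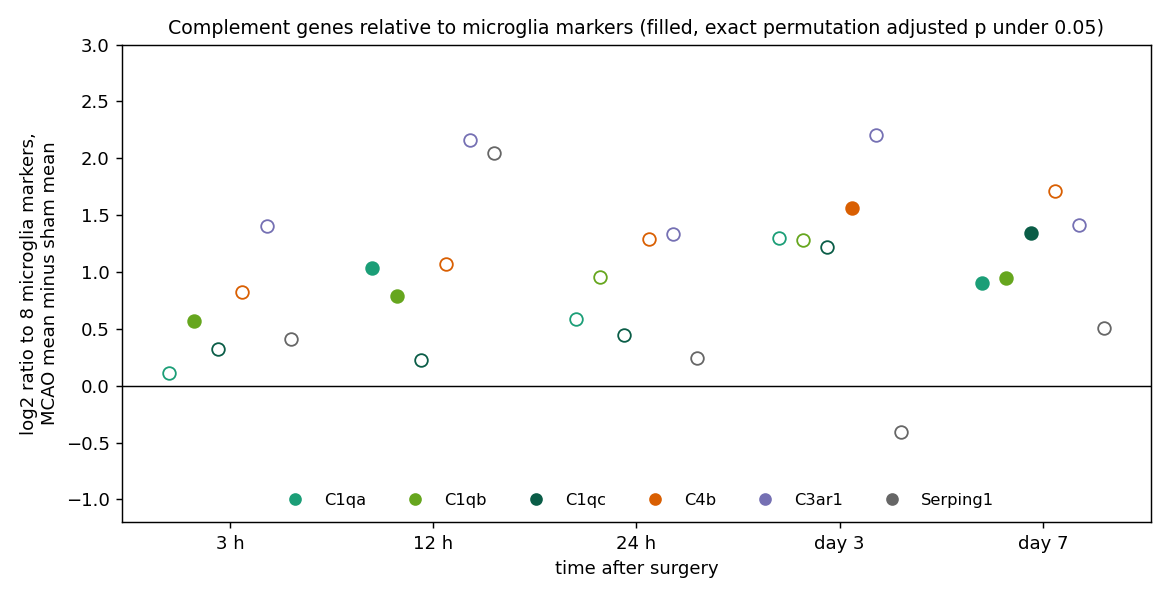
Difference between MCAO and sham in the mean log2 ratio of 6 complement genes to the summed CPM of 8 microglia markers, by time, with filled points for an adjusted p under 0.05 (exact permutation test over 45 tests). On day 7 all 3 C1q chains are filled (0.90 to 1.34), and *Serping1* lies at -0.41 on day 3.

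Markers of other cells moved in the same groups. The sum of 8 markers of peripheral myeloid cells was 30.0 to 36.0 CPM in sham and 42.7 to 524.4 CPM in MCAO on day 3 (4 of 8 called higher), and 24.3 to 33.8 against 38.7 to 486.6 CPM on day 7 (2 of 8). Most reads of this list were of *Fn1*, 5462 over all libraries, against 29 to 782 for each other marker of the list. The sum therefore follows mainly *Fn1*. In sham *Ly6c2*, *Chil3*, *Ms4a4c* and *F10* were at 0 on both days. Fibroblast markers summed to 97.4 to 176.6 CPM in sham and 103.0 to 1357 CPM in MCAO on day 3 (3 of 8 called higher), and to 62.0 to 113.9 against 184.6 to 5505 CPM on day 7 (5 of 8). Erythroid markers were called in 3 of 5 on day 3 and 4 of 5 on day 7, endothelial markers in 2 of 8 on day 3, astrocyte markers in 1 and 2 of 8 and oligodendrocyte markers in 1 of 8 on day 7, all higher, and 1 of 8 neuron markers was called lower on each day. No choroid plexus marker was called on these days. The part of these cells in the levels of the members was not tested.

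The rest of the pathway was read from a list of 56 other complement genes, of which 38 had more than 10 reads. Against sham 0 of the 38 were called at 3 h, 12 h and 24 h, where 4, 9 and 7 had an unadjusted p under 0.05 by edgeR, and DESeq2 also called 0 at these times. With no filter on low counts 1 gene of the list was called higher at 12 h and 1 at 24 h. With only the groups compared 1 was called higher at 24 h. With the filter and all groups in the fit, 3 of the 38 were called against sham on day 3 and 3 on day 7, all higher. The shares of all genes tested that were called higher were 3.76% and 2.07%. The median log2 fold change of the 38 was 0.57 on day 3 and 0.42 on day 7, beside 0.01 and 0.06 over all genes tested. The other 18 genes, with 0 to 8 reads each in all 48 libraries, included *Mbl1*, *Mbl2* and *Fcnb* of the lectin route, *Cfb* and *Cfd* of the alternative route and *C6*, *C7*, *C8a* and *C9* of the membrane attack complex.

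The 3 calls against sham on day 3 were receptor genes. The subunits of complement receptor 3, which binds cleaved C3, were *Itgam*, at 1.87 to 9.70 CPM in sham and 17.1 to 72.4 CPM in MCAO on day 3, and *Itgb2*, at 0 to 3.69 and 4.81 to 52.9 CPM. Both groups of libraries were apart for either gene. *Itgam* rose by 2.63 on day 3 (SE 0.43, adjusted p = 3.45e-05 from edgeR with Benjamini-Hochberg adjustment) and by 2.23 on day 7 (adjusted p = 0.000918), and *Itgb2* rose by 3.51 on day 3 (SE 0.82, adjusted p = 0.00306). The call of *Itgb2* was lost without MCAO replicate C (2.89, adjusted p = 0.0278) and without sham replicate A, C or D (3.12 to 3.74, adjusted p = 0.0101 to 0.0207). *Cd93*, once described as a C1q receptor and also found on endothelium, rose by 2.72 on day 3 (SE 0.44, adjusted p = 2.29e-05) and by 1.79 on day 7 (adjusted p = 0.00579), where it was at 0.96 and not called without MCAO replicate C (adjusted p = 0.142). The call on day 7 was also lost without sham replicate A, B or D (1.68 to 1.75, adjusted p = 0.0223 to 0.029).

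Among the regulators, *Clu*, an inhibitor of the membrane attack complex, was not called, at 634.8 to 747.0 CPM in sham and 780.8 to 902.8 CPM in MCAO on day 3. Against control, 1 of the 38 was called higher at 12 h and 1 lower (0.471% of all genes tested were called lower), and 1 was called lower at 24 h (0.16%). These were the pentraxin *Ptx3*, which binds C1q, and *Vtn* at 12 h, and *Csmd2*, a membrane regulator of neurons, at 24 h. *Ptx3* had 0 reads in control and 0.371 to 19.3 CPM in MCAO at 12 h. In the pool this was 22.3-fold above a limit of 3 reads over the control group. However, its adjusted p of 0.00271 from edgeR rose to 0.0119 to 0.0145 without any of the 4 controls. Against the shams of 12 h, with 3 reads in all, *Ptx3* was 28.3-fold higher in the pool (counting interval 9.39 to 140) and was not called. It was called there without MCAO replicate A or D (adjusted p = 0.00295 and 0.00693 from edgeR). At 24 h *Ptx3* was 14.7-fold above a limit of 3 reads over the sham group in the pool and was not called. *Vtn* fell by 1.21 (SE 0.18, adjusted p = 4.93e-05), from 49.7 to 89.2 CPM in control to 20.4 to 39.4 CPM, and *Csmd2* fell by 0.81 (SE 0.17, adjusted p = 0.00825), a call lost without 7 of the 8 libraries compared (adjusted p = 0.0124 to 0.0647). Neither was called against the sham of the same time, where *Vtn* differed by -0.68 (adjusted p = 0.0457) and *Csmd2* by -0.26 (adjusted p = 0.701). The mean of *Csmd2* was 129.0 CPM in control, 88.0 CPM in sham and 73.4 CPM in MCAO, and that of *Vtn* 74.2, 51.4 and 32.1 CPM. On day 3 *Itgb2*, *Cd93* and *Itgam* were also called against control, of which *Itgb2* was not without MCAO replicate C or control replicate A or D (3.59 to 4.002, adjusted p = 0.0123 to 0.0148), and on day 7 *Itgam* was, a call lost without MCAO replicate C or E or any control (adjusted p = 0.0134 to 0.077).

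The genes with the pattern most like each member were found from Pearson's r over the 11 group means of log2(CPM + 1), among 13911 genes with a mean of at least 2 CPM. These values describe likeness over 11 points that share controls and libraries. For *C1qa* they were *Lgals9* (0.99), *Xaf1* (0.99) and *Tyrobp* (0.99), for *C1qb* *Nid1*, *Tyrobp* and *C1qa* (0.98 each), and for *C1qc* *Fli1* (0.99), *Cst7* (0.99) and *Ctss* (0.98). *Tyrobp* encodes an adaptor of myeloid receptors and *Ctss* a lysosomal protease of phagocytes. For *C4b* they were *Hcls1* (0.99), *Nid1* (0.99) and *Gbp3* (0.98), and for *C3ar1* *Snx8*, *Cd93* and *Fyb* (0.98 each). *Serping1* had lower values, with *Samsn1*, *Nrros* and *Efemp1* at 0.94. The sparse members gave *Tuba1c* (0.99), *Cyp1b1* (0.98) and *Rhoc* (0.97) for *C5ar1*, *Mndal* (0.95), *Slfn2* (0.94) and *Clec7a* (0.94) for *C3*, and *Gatad2a* (0.98), *Rfc3* (0.97) and *Rad50* (0.95) for *C1ra*.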

How the data were processed

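RNA of 48 mouse cortex libraries was measured as described in the report. The authors trimmed the reads, removed mitochondrial and ribosomal reads, aligned the rest to GRCm38 (STAR 2.5.2b, per the labels) and counted them with HTSeq on Gencode vM8, and they deposited raw counts per gene for each library. The normalized matrix of the authors was not used. Reads without a feature (median 23.5% of the alignments listed), ambiguous reads (0.400%), reads that were not unique (33.5%) and spike-ins (3.71 to 5.97% of counts) stayed out of library sizes and tests. Gene positions and symbols came from Gencode vM21 and matched 46488 of 46983 genes. With the sequencing of 3′ ends, a count depends little on transcript length.

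The 19970 genes with more than 10 reads in total were tested with edgeR 4.0.16 (R 4.3.3; TMM, glmQLFit, glmQLFTest), a single fit of 11 groups and 19 contrasts, with the thresholds given in the report. The biological coefficient of variation was 24.9%. Ratios used 1 CPM as pseudocount and exact two-sided permutation tests with a threshold of 0.05, in Python 3.11.15 (numpy 2.4.6, scipy 1.17.1, pandas 2.3.3, matplotlib 3.10.9). Pooled reads have 95% exact binomial intervals, and 3 reads over a group stand for a count of 0. Both cover counting error only, since reads without molecular identifiers are not independent molecules. A fold over the limit of 3 reads also leaves out the counting error of MCAO. The scripts were tested on simulated data. The members and lists were chosen with earlier results of these data known. Genes named were the members, the other complement genes called in MCAO against sham or control, and for each member the 3 genes most like it. *C4a*, *C1rb*, *Clu* and the genes with 8 or fewer reads were named after their values were seen. Some genes that this rule names, and some marker genes, are not reported here. The alternatives were DESeq2 size factors, DESeq2 1.42.0, no filter or filterByExpr, only the groups compared, spike-in scaling, a replicate block and each library left out.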

Additional observations from a re-analysis of the deposited data

Results flagged for a closer look

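Single libraries far from the rest of their group were looked for in 95 pairs of a gene and a group, by the gap to the nearest library over the whole range (Dixon's 95% limit), and 19 were found. For normally distributed values chance gives about 1 in 20 groups. The rate for the CPM of these groups, some with few reads, was not estimated. In the groups where other libraries had 0 reads a single read is enough. On day 7 replicate C of MCAO was the high library for 6 members, with 909.6 CPM of *C1qa* (148.3 to 288.7 CPM in the others), 556.9 CPM of *C1qb* (91.6 to 131.3), 772.8 CPM of *C1qc* (163.6 to 249.3), 166.0 CPM of *Serping1* (26.0 to 52.8), 163.0 CPM of *C3ar1* (16.3 to 29.4) and 16.1 CPM of *C5ar1* (0.480 to 2.51), and for *C1ra* at 5.95 CPM (10 reads). It was not so for *C4b*.

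*C3* stood out in replicate E of MCAO at 12 h (20.3 CPM, 34 reads) and replicate C of MCAO on day 3 (13.5 CPM, 27 reads). It did so with few reads in sham replicate D at 3 h (2.18 CPM, 4 reads), sham replicate C on day 3 (2.34 CPM, 5 reads) and control replicate A (0.558 CPM, 1 read). *C5ar1* stood out in MCAO replicate D at 24 h (8.56 CPM, 14 reads), in sham replicate C at 12 h (3.33 CPM, 9 reads) and in sham replicate C at 3 h (0.448 CPM, 1 read). *C1qa* was high in MCAO replicate D at 12 h (150.0 CPM, 62.1 to 78.2 in the others) and at 24 h (139.9 CPM, 92.1 to 98.6). *C1qb* was low in sham replicate C at 24 h (16.5 CPM, 34.1 to 36.7 in the others), and *C4b* was high in sham replicate C at 3 h (17.9 CPM, 3.95 to 5.18 in the others). No change of a member between successive times was called.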

How the results depend on the processing

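No direction turned under any alternative tried among the called log2 fold changes, the ratios that passed and a few uncalled values. The direction of the other uncalled values was not compared. Against sham at 12 h the number of members called was 1, and it was 2 with DESeq2 and 3 with no filter on low counts. At 24 h it was 0, and it was 1 with DESeq2, no filter or spike-in scaling and 2 with only the groups compared. Against control it went from 0 to 1 at 12 h with DESeq2, no filter or only the groups compared, and at 24 h from 1 to 2 with DESeq2 and to 3 with no filter or only the groups compared. The change from 24 h to day 3 was called for 1 member with no filter in place of 0. With 1 library left out at a time the numbers were 0 to 1 against sham at 12 h and at 24 h, 6 to 7 on day 3, 4 to 6 on day 7, 5 to 7 and 5 to 6 against control on these days, and 0 to 1 for the change from 24 h to day 3. The ratios to microglia markers past the threshold went from 8 to 27 with a pseudocount of 0.1 CPM, to 27 without *Cx3cr1*, 15 without *Csf1r* and 0 to 26 with 1 library left out. The causes of these changes were not tested.

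The replicate letters were not treated as pairs: the median correlation of same-letter deviations lay between -0.067 and 0.153, and in no comparison was every pair over 0.1. For sham against control on day 7, 3 of 4 pairs were over 0.1, and the median was 0.153 against -0.0862 between other letters. The 4 pairs of a comparison are too few to decide on a pairing. With the letter as a replicate block, 0, 1, 0, 7 and 6 members were called against sham in the order of the times and 0, 0, 1, 5 and 6 against control. The block lost *C5ar1* on day 3 against control (3.63, adjusted p = 0.0162 from edgeR). Spike-in scaling moved the median log2 fold change of all genes to -0.22 on day 3 against sham and -0.28 against control, and it lost *Serping1* on day 3 against sham (1.35, adjusted p = 0.0129), *C5ar1* on day 3 against control (3.69, adjusted p = 0.0132) and *Serping1* on day 7 against control (1.42, adjusted p = 0.0158). With only the groups compared, *C5ar1* on day 3 and *Serping1* and *C3ar1* on day 7 against control were not called (adjusted p = 0.0192, 0.0521 and 0.0123). *C3*, *C1ra* and *C5ar1* are limited by depth, with 134, 239 and 287 reads in all.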
